A study of Drosophila melanogaster with 9 samples.

Results

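In the fat body of Drosophila melanogaster, 64 of 10242 measured genes were near silent except in white prepupae with a high level of Mitf. They were chosen from the deposited values: the lowest of the 3 libraries of these prepupae was at least 300 normalised read counts, and the highest of the other 6 libraries was under 20. Both thresholds were met by 69 genes, of which 5 were left out by symbol because they carry symbols that the rule sets aside: Cyp317a1, Cyp12d1-d, Cralbp, SecCl and Cln3. The large difference that marks the 64 genes is therefore the rule itself, and it is given below as a description without a test. Each library is 1 of 3 per group, was made from the fat bodies of 5 animals, and was sequenced as stranded poly(A) RNA.

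The groups follow the sample titles, because the labels conflict. The Mitf-high group is the prepupae titled LacZ, and the prepupae titled mitf are the second group. The genotype label gives UAS-Mitf/+; Lsp2-GAL4/+ to all 6 of these samples, while the column names inside their tables say mitf for the libraries titled LacZ and LacZ for those titled mitf. The larvae, titled e3IL and labelled as the third instar, have the genotype UAS-LacZ/+; Lsp2-GAL4/+. Lsp2-GAL4, carried by all 9 libraries, drives a UAS transgene from the promoter of a storage protein gene of the late larval fat body, and its activity in the larvae was not tested. Mitf, annotated on chromosome 4, had 35204, 68535 and 45647 normalised read counts in prepupae titled LacZ. It had 346.9, 370.4 and 407.1 in prepupae titled mitf, with 378.2, 384.9 and 410.7 in larvae. Mitf was thus high in all 3 libraries titled LacZ and low in the other 6, the pattern that the column names give and the titles do not. These values do not tell transcripts of a UAS-Mitf transgene from those of the gene on chromosome 4. Replicate 2 of the prepupae titled LacZ stood apart, with a Mitf value 1.70 times the mean of replicates 1 and 3.

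Mitf is the fly member of the MiT/TFE family of basic helix-loop-helix leucine zipper transcription factors. These factors bind E-box-like elements, and they are known for raising the genes of lysosomes, of the V-ATPase proton pump and of autophagy. In the fat body, the insect organ that stores nutrients and secretes serum proteins, autophagy and lysosomes remodel the cells as the larva becomes a pupa.

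The estimated depth was 18400000 to 29000000 reads per library. In the 6 low libraries 1 read was worth 0.779 to 1.388 normalised read counts, so that a value of 1 to 2 is about 1 or 2 reads. Among the 64 genes, 3 were listed at 0 in all 6 low libraries (Obp19d, CG31675 and CG18810), and 48 were listed at 0 in at least 1 of them. The highest of the 6 low values was under 5 for 26 genes and 10 or more for 23 genes. The 10 fat body markers used to check the tissue were present in every library. Their summed level was 1126604 to 1554983 in prepupae titled LacZ, 10359249 to 10689916 in prepupae titled mitf and 7427699 to 12500385 in larvae, and 9 of the 10 were lower in prepupae titled LacZ than in prepupae titled mitf. Of all genes tested, 31.6% were lower between these prepupa groups. In these bulk samples, fewer cells of a type and less RNA per cell cannot be told apart.

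Together the 64 genes took up 107248, 113206 and 112595 normalised read counts in the 3 libraries titled LacZ, which is 0.599% to 0.658% of a library. They summed to 227.4, 194.4 and 259.4 in prepupae titled mitf and to 162.2, 181.3 and 236.6 in larvae. In the fit described under the processing, the differences between prepupae titled LacZ and prepupae titled mitf ran from 4.67 to 13.44 on the log2(value + 1) scale, with a median of 8.57. Differences of this kind depend on the pseudocount wherever the lower group is at or near 0. All 64 were called higher in that comparison because of the rule, beside 41.1% higher and 31.6% lower of the 10139 genes tested. All 64 were called higher against larvae too, beside 46.3% higher and 32.2% lower. The next counts leave out no symbols. Under the same 2 thresholds, 69 genes were high in prepupae titled LacZ alone, 19 in prepupae titled mitf alone and 5 in larvae alone. The opposite pattern, low in 1 group and high in both others, was met by 3 genes for prepupae titled LacZ, 10 for prepupae titled mitf and 31 for larvae.

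**Figure D1:**
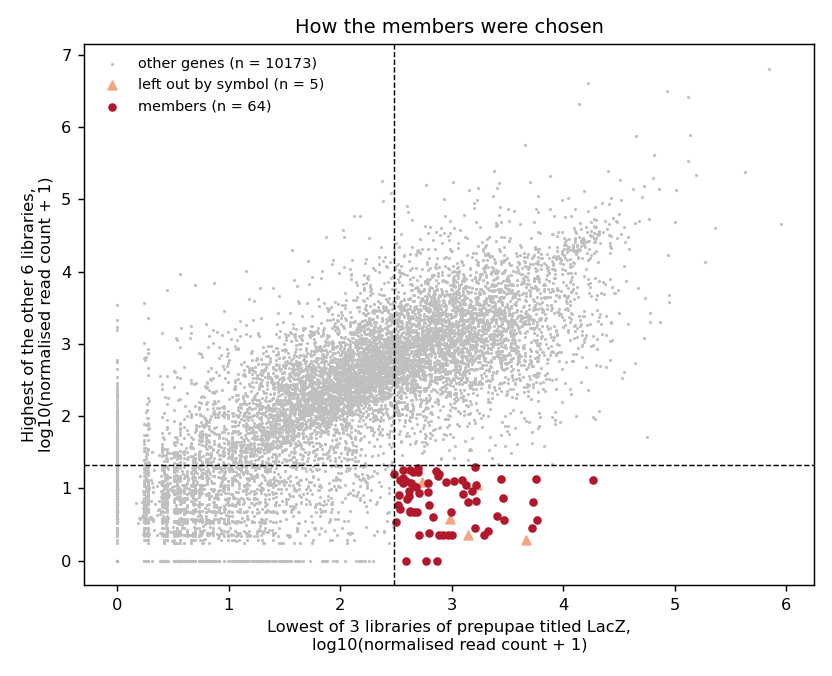
Each point is a gene, plotted by its lowest value in the 3 libraries of prepupae titled LacZ and its highest value in the other 6 libraries, both as log10(normalised read count + 1). Dashed lines mark the thresholds of 300 and 20. The 64 members lie in the lower right corner and are continuous with the genes around them.

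Genes on either side of the thresholds differed little. Just inside the lower threshold were RyR, APC7 and Obp18a, with lowest values of 301.4, 311.7 and 330.1 in prepupae titled LacZ. Just outside it were CG17028, yl, the yolk protein receptor of the oocyte, and per, a circadian clock gene, with 292.9, 290.9 and 271.9. At the ceiling, the highest low value was 18.8 for Gdap1, 18.3 for mia and 17.1 for Zasp66. The nearest genes over it were eya with 20.14, the clock gene tim with 20.45 and CG15201 with 20.98. Both clock genes per and tim were thus high in prepupae titled LacZ and missed the list narrowly. For tim the values were 8664, 9479 and 7931 in prepupae titled LacZ, against 7.731, 4.98 and 14.24 in the titled mitf group and 20.45, 19.31 and 13.39 in larvae.

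**Figure D2:**
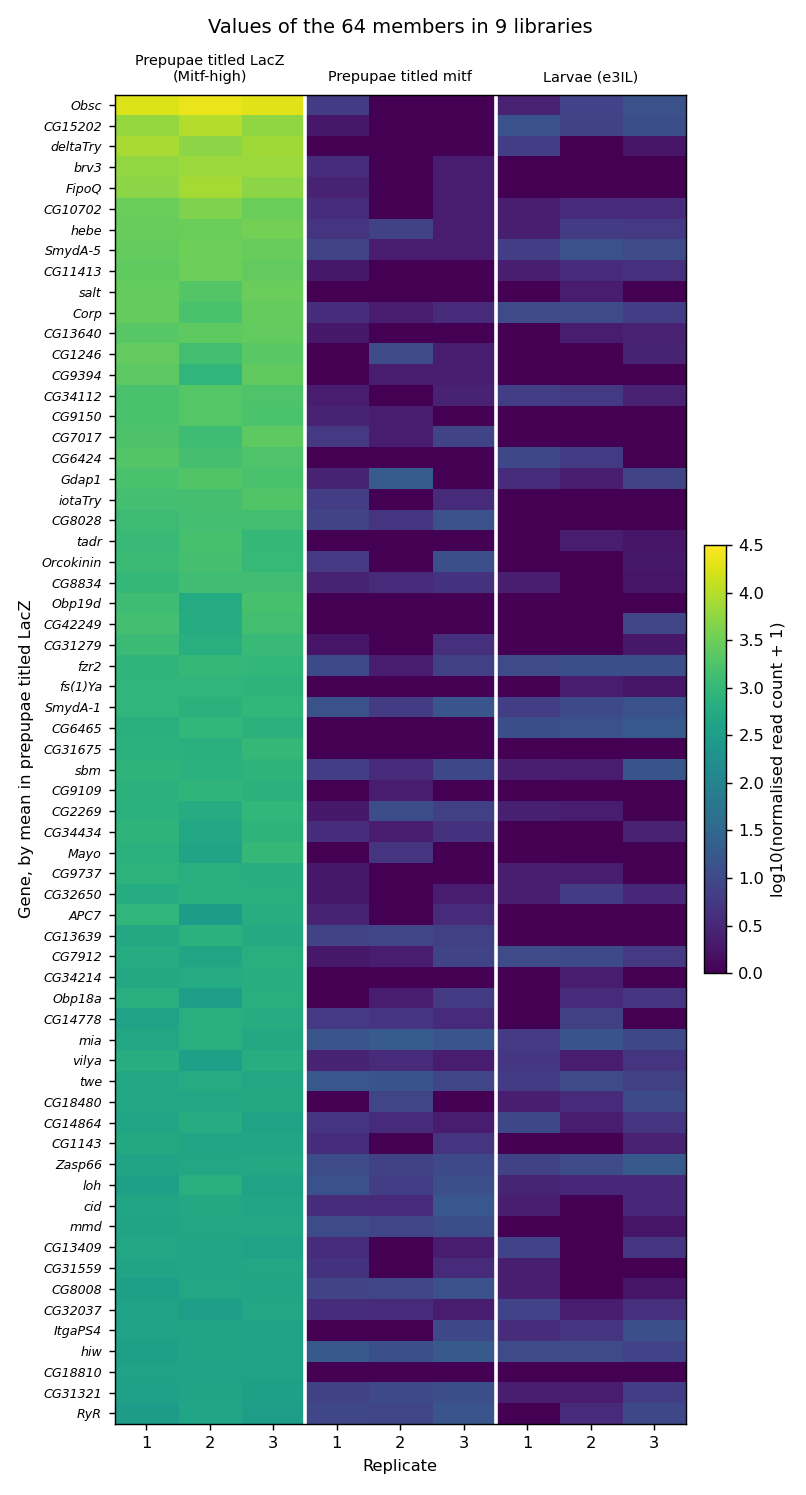
Heat map of the 64 members (rows, from the highest mean in prepupae titled LacZ down) in 9 libraries (columns), coloured by log10(normalised read count + 1). The 3 columns of prepupae titled LacZ are high by the rule; among the other 6 columns, scattered values between 1 and 19 show where the low groups differ.

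Genes of the muscle sarcomere and of calcium release formed 1 group. Obsc encodes obscurin, a giant protein of the sarcomere M-band, and lies on the minus strand of 2R at 23995543 to 24014254 (build BDGP6) with 38 exons in its longest transcript. Its values were 18457, 22956 and 19725 in prepupae titled LacZ, against 5.115, 0 and 0 in those titled mitf and 1.545, 6.956 and 12.13 in larvae. Obsc alone made up the largest share of the summed level of the 64 genes. It was also long, and per kilobase of its longest transcript its level of 1545 was below that of 7 other members with a gene symbol. Zasp66, which encodes a protein of the sarcomere Z-disc, had 424, 495.2 and 521.8 in prepupae titled LacZ. It had 10.18, 6.822 and 8.782 in prepupae titled mitf, with 6.546, 9.536 and 17.1 in larvae, and these 2 low groups overlapped. RyR encodes the calcium release channel of the endoplasmic and sarcoplasmic reticulum. It had 301.4, 450.8 and 321.4 in prepupae titled LacZ, against 8.241, 7.649 and 14.59 in the titled mitf group and 0, 2.502 and 8.552 in larvae.

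The list of 17 muscle markers, all of them in the files and 1 of them the member Zasp66, moved differently in the 2 comparisons. Between prepupae titled LacZ and prepupae titled mitf 8 rose, Zasp66 by the rule, and 0 fell, with a median log2 difference of 1.10, beside 0.22 over all genes tested. Against larvae 3 rose and 8 fell, with a median of -1.68, beside 0.50 over all genes. Of all genes tested 41.1% were higher and 31.6% lower between the prepupa groups, and 46.3% and 32.2% against larvae. The summed level of the list was 6509 to 7791 in prepupae titled LacZ, 888.6 to 1142 in prepupae titled mitf and 3188 to 3668 in larvae. Most of the sum in prepupae titled LacZ was sls, which encodes the titin-like protein Sallimus, with 5962, 5092 and 5310, against 379, 352.7 and 541 in those titled mitf and 46.36, 74.9 and 166.9 in larvae. The flight muscle actin gene Act88F had 209.1, 220.1 and 179.2 in prepupae titled LacZ, against 0 in each of the other 6 libraries. Muscle myosin heavy chain, Mhc, had 5.629, 5.171 and 8.225 in prepupae titled LacZ. It had 1.842, 5.094 and 1.223 in prepupae titled mitf, with 24.97, 54.95 and 147.5 in larvae. Between the prepupa groups Mhc was not called, with a log2 difference of 1.10 (adjusted p = 0.134, limma). Called higher were the myosin light chain genes Mlc2 and Mlc1, by 3.72 and 2.67, the paramyosin gene Prm by 2.07 and the troponin I gene wupA by 1.88. Mean levels of Mlc2 were 42.9 in prepupae titled LacZ, 2.35 in those titled mitf and 65.46 in larvae. For Prm they were 32.99 in prepupae titled LacZ, 6.729 in the titled mitf group and 193.5 in larvae. In the same order they were 19.54, 2.207 and 19.53 for Mlc1 and 6.546, 1.138 and 22.91 for wupA, whose rise rests on few reads. The muscle markers Tm2 and Mf, not called between the prepupa groups, had log2 differences of -0.99 and -1.23. The part of muscle tissue in the levels of Obsc, Zasp66 and RyR was not tested. The second Zasp gene, Zasp52, rose as well, by 3.50 ± 0.36 on the log2 scale (SE, n = 3 each, adjusted p = 1.13e-05, limma), with 1819, 636.7 and 1680 in prepupae titled LacZ, against 86.37, 107.5 and 141.5 in prepupae titled mitf.

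A pair of trypsin-like serine protease genes lay side by side on the plus strand of 2R. The gene deltaTry, at 11355319 to 11356128, had 8183, 5291 and 7130 in prepupae titled LacZ, and iotaTry, at 11356720 to 11357537, had 1406, 1479 and 1868. In prepupae titled mitf deltaTry was listed at 0 in all 3 libraries, and in larvae it had 5.533, 0 and 0.777. The values of iotaTry were 5.481, 0 and 2.443 in prepupae titled mitf and 0 in all 3 larval libraries. Between the 2 genes lies CG13202 on the opposite strand, which had 235, 154.6 and 217.3 in prepupae titled LacZ, against 0 in each of the other 6 libraries. With 8479 normalised read counts per kilobase of transcript, deltaTry had the highest level per length of all 64 members. Close copies of deltaTry stand in the same cluster of trypsin genes, so the split of reads among them is uncertain: gammaTry was listed at 0 in all 3 libraries titled LacZ, and CG30031 had 15.99, 0 and 17.16 there.

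Of 30 midgut markers listed, 27 were in the files, 25 were tested, and deltaTry and iotaTry were members. Between prepupae titled LacZ and prepupae titled mitf 12 rose, the 2 members by the rule, and 7 fell, with a median log2 difference of 0.63. Over all genes tested 41.1% were higher and 31.6% lower, with a median of 0.22, so the count was near the background. The summed level of the list was 8928 to 12057 in prepupae titled LacZ, 3642 to 4539 in prepupae titled mitf and 141 to 183.8 in larvae. Most of the sum in prepupae titled LacZ was deltaTry and iotaTry, which the rule makes high there, so its rise is no separate result. In prepupae titled mitf most of it was the maltase gene Mal-A6, with a mean of 3072, against 1456 in prepupae titled LacZ. The trypsin gene betaTry rose to 122.2, 79.71 and 136.4 in prepupae titled LacZ, against 0 in all 3 libraries titled mitf. The amylase gene Amy-p rose to 246.4, 81.4 and 202.1 in prepupae titled LacZ, against 0 in those titled mitf. The maltase gene Mal-A8 moved the other way, with 19.12, 24.71 and 11.19 in prepupae titled LacZ, against 735.9, 850.9 and 540.8 in prepupae titled mitf. Among the Jonah serine proteases of the list, Jon99Cii and Jon99Ciii fell and Jon25Bi, Jon25Bii and Jon25Biii rose, all at mean levels under 9 in both prepupa groups. The part of gut tissue in the level of deltaTry and iotaTry was not tested.

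Germline and cell division genes were a further group. On the X chromosome fs(1)Ya, which encodes a nuclear envelope protein of the egg and early embryo, and vilya, which encodes a meiotic recombination protein, follow each other on the plus strand with 100 bases between them. At 2724286 to 2726577, fs(1)Ya had 905.1, 914.7 and 827.8 in prepupae titled LacZ, against 0 in all 3 libraries titled mitf and 0, 1.248 and 0.7781 in larvae. Its neighbour vilya had 632.5, 342.7 and 641 in prepupae titled LacZ, against 1.827, 2.568 and 1.221 in the titled mitf group and 4.146, 1.243 and 3.882 in larvae. The 2 genes differed in replicate 2, where vilya was 0.538 times the mean of the other 2 libraries titled LacZ and fs(1)Ya was 1.06 times it. The meiotic Cdc25 phosphatase gene twe had 505, 576.7 and 494.3 in prepupae titled LacZ, against 15.81, 13.68 and 7.602 in those titled mitf and 4.71, 10.03 and 6.168 in larvae. The testis gene mia, which encodes a homologue of the general transcription factor subunit TAF6, had 493.2, 660.1 and 518.5 in prepupae titled LacZ. It had 14.54, 18.3 and 14.06 in prepupae titled mitf, with 4.596, 13.79 and 8.598 in larvae, so that mia and twe were among the members that were low rather than absent elsewhere.

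The gene cid, which encodes the centromeric histone H3 variant, is a single exon of 1015 bases on the plus strand of 2R. It had 443.7, 512 and 450.3 in prepupae titled LacZ, against 2.739, 2.561 and 15.85 in the titled mitf group and 1.382, 0 and 2.329 in larvae. APC7, a subunit of the anaphase-promoting complex, had 918.3, 311.7 and 633.8 in prepupae titled LacZ, against 1.827, 0 and 2.431 in prepupae titled mitf and 0 in larvae. Its 3 high libraries were far apart, with the highest coefficient of variation of any member, 48.8%. The other measured genes named for that complex changed less. APC10 rose by 1.28 ± 0.18 on the log2 scale (SE, n = 3 each, adjusted p = 0.000111, limma). It had 164.1, 180.2 and 144.3 in prepupae titled LacZ, against 74, 74.44 and 52.5 in prepupae titled mitf. APC4 was not called. The gene fzr2, a relative of the Fizzy-related activator of the same complex, had 877.7, 1005 and 935.1 in prepupae titled LacZ. It had 9.136, 1.278 and 6.086 in those titled mitf and 9.691, 11.21 and 10.88 in larvae. Of the 9 testis markers listed, 2 were in the files, and Mst87F moved against mia, with 105.1, 142.3 and 109.9 in prepupae titled LacZ, against 340.5, 367.8 and 372.9 in prepupae titled mitf.

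Nervous system and sensory genes came next. The neuropeptide gene Orcokinin had 1145, 1484 and 1040 in prepupae titled LacZ, against 4.528, 0 and 11.8 in prepupae titled mitf, with 0, 0 and 0.9733 in larvae. The gene brv3, which encodes a channel protein related to the TRP family and lies on the X at 2622069 to 2624575, had 5833, 6776 and 6734 in prepupae titled LacZ. It had 2.712, 0 and 1.254 in prepupae titled mitf and was listed at 0 in larvae. The 3 high libraries of brv3 were close together, with 6447 ± 532.9 (SD, n = 3), and no other measured gene bears that family name. The ubiquitin ligase gene hiw (highwire), known from synapse growth, had 365.9, 425.1 and 408.8 in prepupae titled LacZ, against 16.83, 11.32 and 16.79 in the titled mitf group and 9.597, 10.22 and 7.163 in larvae. Mayo, a receptor of the adhesion G protein-coupled family, had 751.9, 418.5 and 975.1 in prepupae titled LacZ, against 0, 3.823 and 0 in prepupae titled mitf and 0 in larvae. Of 10 neuron markers listed, 5 were in the files: nSyb and brp rose between the prepupa groups at mean levels of 46.51 and 9.948 in prepupae titled LacZ, Syt1 fell, and elav and Rdl were not called.

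A pair of odorant-binding protein genes on the X were members. Obp19d had 1269, 580.8 and 1538 in prepupae titled LacZ, against 0 in each of the other 6 libraries. Obp18a had 663, 330.1 and 693.4 in prepupae titled LacZ, against 0, 1.285 and 4.889 in those titled mitf and 0, 2.483 and 3.878 in larvae. Both were lowest in replicate 2 of the prepupae titled LacZ. Across the 19 Obp genes tested, 10 rose, Obp19d and Obp18a by the rule, and 4 fell between prepupae titled LacZ and prepupae titled mitf, beside 41.1% higher and 31.6% lower of all genes tested. Those that rose included Obp57d, with 72.63, 40.67 and 54.5 in prepupae titled LacZ and 0 in the other 6 libraries. The most abundant of the family, Obp99b, fell by 2.43 ± 0.28 on the log2 scale (SE, n = 3 each, adjusted p = 2.86e-05, limma). It had 64768, 71179 and 74250 in prepupae titled LacZ, against 408193, 386955 and 342657 in prepupae titled mitf, with 242996, 161220 and 107667 in larvae.

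Transporters, matrix proteins and adhesion receptors made up the next set. The gene salt, a member of the sodium-coupled solute carrier family, had 2744, 1936 and 3020 in prepupae titled LacZ, against 0 in prepupae titled mitf and 0, 1.249 and 0 in larvae. The amino acid transporter family gene tadr had 1108, 1570 and 1001 in prepupae titled LacZ, against 0 in prepupae titled mitf and 0, 1.248 and 0.7781 in larvae. The second amino acid transporter gene, sbm, had 832.1, 750.2 and 855.2 in prepupae titled LacZ, against 5.541, 2.576 and 8.592 in the titled mitf group and 1.401, 1.261 and 13.91 in larvae. In the 6 low libraries salt and tadr were at 1.249 or less, while sbm reached 13.91 in 1 larva library. The gene loh, which encodes an ADAMTS-like matrix protein, had 364.2, 675.3 and 394.5 in prepupae titled LacZ, against 12.74, 5.951 and 11.34 in those titled mitf and 1.933, 2.33 and 2.179 in larvae. The integrin alpha chain gene ItgaPS4 had 397.3, 423.1 and 390 in prepupae titled LacZ, against 0, 0 and 8.503 in prepupae titled mitf, with 2.773, 3.744 and 11.67 in larvae. The ADAM metalloprotease family gene mmd had 431.7, 481.4 and 477.7 in prepupae titled LacZ, against 10.14, 7.707 and 11.02 in the titled mitf group and 0, 0 and 0.7744 in larvae. While loh varied most between its high libraries, with a replicate 2 at 1.78 times the mean of the others, ItgaPS4 and mmd varied little. The other measured gene named ItgaPS, ItgaPS5, rose too, to 13.56, 11.48 and 14.19 in prepupae titled LacZ, against 1.827, 2.548 and 1.214 in prepupae titled mitf.

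Protein modification and cell death genes followed. SmydA-5 and SmydA-1 belong to the arthropod branch of the SET and MYND domain methyltransferase family. SmydA-5 had 2776, 3228 and 2845 in prepupae titled LacZ, against 7.309, 1.276 and 1.216 in those titled mitf and 5.54, 12.47 and 10.11 in larvae. SmydA-1 had 919.3, 766.5 and 952.1 in prepupae titled LacZ, against 11.88, 5.107 and 14.59 in prepupae titled mitf, with 5.539, 8.726 and 12.44 in larvae. Of the 8 measured SmydA genes 6 rose, the 2 members by the rule, and 1 fell between prepupae titled LacZ and prepupae titled mitf. Of all genes tested 41.1% were higher and 31.6% lower. SmydA-7, with means of 66.32 in prepupae titled LacZ and 67.06 in the titled mitf group, was not called. Apart from the 2 members, the 4 that rose had mean levels of 51.26 or less in prepupae titled LacZ. FipoQ, an F-box protein gene, had 5244, 7782 and 5283 in prepupae titled LacZ, against 1.827, 0 and 1.216 in prepupae titled mitf and 0 in larvae. Corp, a target gene of p53, had 2755, 1637 and 2783 in prepupae titled LacZ, against 2.748, 1.284 and 2.444 in the titled mitf group and 9.709, 9.984 and 5.452 in larvae. Gdap1, whose human homologue is a mitochondrial outer membrane protein mutated in inherited neuropathy, had 1595, 1878 and 1627 in prepupae titled LacZ. In prepupae titled mitf it had 1.797, 18.8 and 0, and in larvae 2.724, 1.226 and 7.307, so 1 library gave the value nearest the ceiling. The gene hebe had 2844, 3136 and 3633 in prepupae titled LacZ, against 3.67, 6.409 and 1.221 in those titled mitf and 1.391, 5.007 and 4.683 in larvae.

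Only a CG number stood for 34 of the 64 genes, or 53.1%, beside 36.7% of all annotated genes in the files. No role is given for them here. Per kilobase, CG15202, CG13640, CG11413, CG9150 and CG34112 were the highest of these. CG15202, on the X at 11142541 to 11143755, had 6196, 9415 and 5678 in prepupae titled LacZ, against 0.9303, 0 and 0 in prepupae titled mitf, with 12.65, 6.322 and 11.28 in larvae. CG13640 had 2107, 2461 and 2582 in prepupae titled LacZ, against 0.9175, 0 and 0 in the titled mitf group and 0, 1.244 and 1.557 in larvae. CG11413 had 2538, 3206 and 2606 in prepupae titled LacZ, against 0.9169, 0 and 0 in those titled mitf and 1.385, 2.49 and 3.114 in larvae. CG15202 and CG11413 were higher in every larva than in every library titled mitf, while the low groups of CG13640 overlapped. CG9150 had 1625, 2043 and 1706 in prepupae titled LacZ, against 1.826, 1.283 and 0 in prepupae titled mitf and 0 in larvae. CG34112 had 1642, 2049 and 1851 in prepupae titled LacZ, against 1.238, 0 and 1.661 in prepupae titled mitf, with 5.613, 4.887 and 1.583 in larvae. The other 29 genes with a CG number had means of 387.2 (CG31321) to 3418 (CG10702) in prepupae titled LacZ, with a median of 711.3. CG10702 had 2914, 4203 and 3138 there, against 2.687, 0 and 1.237 in the titled mitf group and 1.413, 2.543 and 2.378 in larvae.

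The rule held prepupae titled mitf and larvae under the same ceiling and set no order between them, but it used their values. Only 42 of the 64 members reached a value of 1 in at least 3 of these 6 libraries, and the other 22 entered the fit through the prepupae titled LacZ, where the rule makes them high. Across all genes tested, 66.4% were called between these 2 groups at an adjusted p under 0.05 (limma on log2(value + 1), Benjamini-Hochberg over 10139 genes), 34.8% higher and 31.7% lower in prepupae titled mitf. Of the 42 members 13 were higher and 8 were lower, or 31.0% and 19.0%, beside 28.4% and 12.8% of the 1358 tested genes that met the same minimum and stayed under 20 in the 6 libraries. Among the other 22, iotaTry was called higher and CG6424 lower, which makes 14 and 9 calls over the 64, beside 18.6% higher and 8.39% lower of 2264 tested genes under 20 without the minimum. With only the 2 groups compared in the fit the 42 gave 7 higher and 4 lower, beside 3562 higher and 3277 lower over all genes. Calls in that fit were not worked out for genes under 20. The fit of all 9 libraries also drew its variance and mean level from the prepupae titled LacZ, where the rule sets the members' values. The 31.0% and 19.0% are therefore not read as a trait of the members. The groups did not overlap for 11 members higher and 6 lower in prepupae titled mitf, beside 37.2% and 33.9% of all genes. That share was not worked out for genes under 20, so these counts do not set the members apart. Whether the replicates were separate crosses is not in the labels, and the p-values may measure technical spread alone.

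By the fit, mmd rose by 3.12 ± 0.30 on the log2 scale (SE, n = 3 each, adjusted p = 8e-06, limma) in prepupae titled mitf over larvae. CG13639 had 7.28, 7.766 and 6.14 in prepupae titled mitf, against 0 in larvae, and CG8028 had 7.305, 3.827 and 12.15 in those prepupae, against 0 in larvae. Their adjusted p-values were 3.19e-06 and 2.95e-05 (limma). In prepupae titled LacZ CG13639 had 508.6, 742.9 and 555.6, and CG8028 had 1218, 1418 and 1349. CG8008 had 7.311, 7.651 and 12.15 in prepupae titled mitf, against 1.386, 0 and 0.7777 in larvae, and CG7017 had 4.582, 1.282 and 7.325 in the titled mitf group, against 0 in larvae. CG31321 had 6.396, 8.929 and 10.94 in prepupae titled mitf, against 1.385, 1.247 and 5.442 in larvae. For loh the difference was 1.75 ± 0.34 (SE, n = 3 each, adjusted p = 0.00115, limma), and every library titled mitf was above every larva. In prepupae titled LacZ CG8008 had 344.6, 473 and 442, CG7017 had 1727, 1246 and 2395, and CG31321 had 374.8, 424.7 and 362.1. These 7 genes thus showed a small rise in the prepupae titled mitf as well.

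Among the members lower in prepupae titled mitf, CG6465 was the clearest. It was listed at 0 in all 3 libraries titled mitf, against 11.09, 12.48 and 16.34 in larvae, and the fit gave a fall of -3.82 ± 0.25 (SE, n = 3 each, adjusted p = 4.32e-07, limma). In prepupae titled LacZ CG6465 had 725.8, 964 and 793. CG15202 fell by 3.10 ± 0.36 (SE, n = 3 each, adjusted p = 2.84e-05, limma), Corp by 1.56 ± 0.33 (adjusted p = 0.00178) and CG11413 by 1.39 ± 0.34 (adjusted p = 0.00447). All 4 were below every larva in prepupae titled mitf and, by the rule, far above every larva in prepupae titled LacZ.

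**Figure D3:**
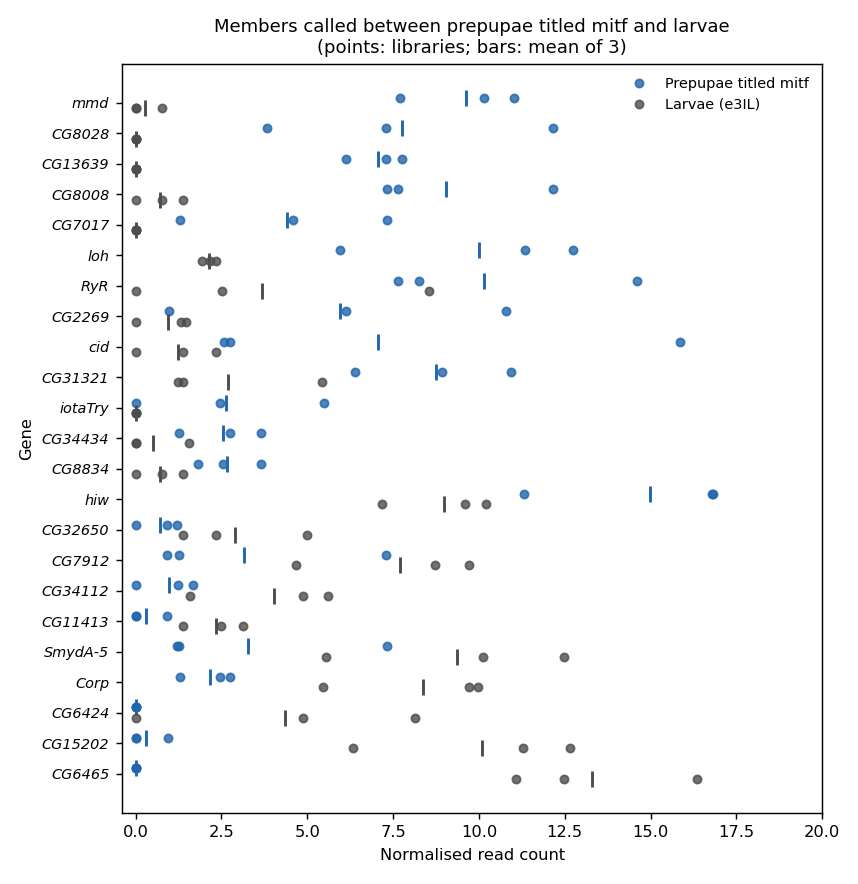
Normalised read counts of the 23 members called between prepupae titled mitf (blue, upper row of each pair) and larvae (grey, lower row), from the largest rise at the top to the largest fall at the bottom. Of these, iotaTry and CG6424 entered the fit only through the prepupae titled LacZ. Points are libraries and bars are means of 3; all values are under 20 by the rule, and CG6465 at the bottom is at 0 in prepupae titled mitf and at 11.09 to 16.34 in larvae.

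The remaining 12 calls depended on the setting or on single libraries. In prepupae titled mitf hiw had an adjusted p of 0.0294, cid 0.0451, RyR 0.0456, CG2269 0.0425, CG34434 0.027 and CG8834 0.0174 for a rise (limma). SmydA-5 had 0.02, CG34112 0.0224, CG32650 0.0302 and CG7912 0.0466 for a fall (limma). The 12 also include iotaTry, called for a rise, and CG6424, called for a fall. Both entered the fit only through the prepupae titled LacZ, so no p-value is given for them and their calls are no support. Each of these 12 lost its call under at least 1 of the alternatives, with no change of sign, whereas the other 11 kept theirs under all 17. The value of cid in prepupae titled mitf rested on replicate 3, with 15.85 against 2.739 and 2.561. CG6424 had 2003, 1500 and 1841 in prepupae titled LacZ, against 0 in prepupae titled mitf and 8.142, 4.887 and 0 in larvae, and the low groups overlapped. CG2269 had 742, 608.2 and 934.1 in prepupae titled LacZ, against 0.9677, 10.78 and 6.117 in those titled mitf and 1.468, 1.321 and 0 in larvae, which also overlapped. For CG34434 the values were 833.6, 484.6 and 837.4 in prepupae titled LacZ, against 2.74, 1.276 and 3.647 in prepupae titled mitf, with 0, 0 and 1.554 in larvae. CG8834 was at 979.7, 1303 and 1304 in prepupae titled LacZ, against 1.827, 2.552 and 3.647 in the titled mitf group and 1.385, 0 and 0.7771 in larvae. In CG34434 and CG8834 all 6 low values were under 4. CG32650 had 622.2, 707.9 and 676.4 in prepupae titled LacZ, against 0.9143, 0 and 1.219 in those titled mitf and 1.385, 4.984 and 2.332 in larvae. CG7912 had 616.4, 452.1 and 697.8 in prepupae titled LacZ, against 0.9137, 1.276 and 7.295 in prepupae titled mitf, with 9.696, 8.728 and 4.664 in larvae.

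The 3 libraries titled LacZ did not give the members equal values. The coefficient of variation over these libraries had a median of 15.2% among the members, from 4.08% to 48.8%, beside 12.0% over the 3644 genes whose lowest library titled LacZ was at least 300. In replicate 2, where Mitf was highest, 15 members were under 0.7 times the mean of replicates 1 and 3, or 23.4%, beside 12.8% of the 3644 genes. Over 1.3 times it were 11 members, or 17.2%, beside 11.4%. The lowest were CG9394 with 0.384, APC7 with 0.402 and Obp19d with 0.414. On the X lay 7 of the 15, beside 16 of all 64 members and 19.8% of the 465 annotated genes of the larger set that were under the same ratio. The highest were loh with 1.78, CG15202 with 1.59 and tadr with 1.49. In replicate 2 some members were thus higher and others lower than in replicates 1 and 3, as were genes of the larger set. With 3 libraries a relation to the Mitf value can not be tested, and the part of other differences between the libraries was not tested.

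**Figure D4:**
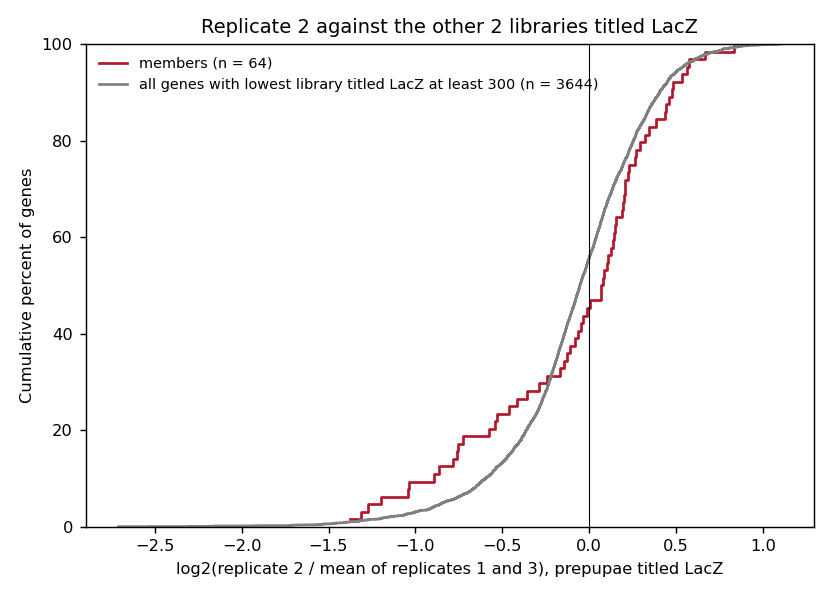
Cumulative percent of genes by the log2 ratio of replicate 2 to the mean of replicates 1 and 3 in prepupae titled LacZ, for the 64 members (red) and for all 3644 genes whose lowest library of that group was at least 300 (grey, members included). The red curve lies above the grey one at low ratios and below it around 0.

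All 64 members were annotated as protein coding. By chromosome arm, 16 lay on the X, or 25.0%, beside 16.7% of all annotated genes in the files, 18 on 2R, or 28.1%, beside 20.8%, and 6 on 3L, or 9.38%, beside 19.2%. The longest transcript had a median length of 1832.5 bases, beside 1976 over all genes. A single exon was annotated for 11 members, or 17.2%, beside 10.8% of all genes. These shares are descriptions without a test.

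Many of the genes beside the members were also higher in prepupae titled LacZ. Of 108 tested protein-coding genes next to a member and not members themselves, 73 or 67.6% were called higher in prepupae titled LacZ than in prepupae titled mitf, with a median log2 difference of 1.89. At 2 genes away the share was 62.5% with a median of 1.20, and at 3 genes away 47.2% with a median of 0.49. Over all tested genes, adjacent genes were called higher in 41.2%, with a median of 0.21. Other genes that rose strongly also had high neighbours. Next to the 2020 other called genes with a lowest library titled LacZ of at least 300, 52.7% were called higher, and next to the 246 of these with a difference at least as large as the smallest among the members, 64.1%. Counting members as neighbours too, 60 of the 64, or 93.8%, had at least 1 adjacent gene called higher, beside 55.6% of all tested genes. This last share was not worked out for the other genes that rose strongly, so it does not set the members apart from them.

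**Figure D5:**
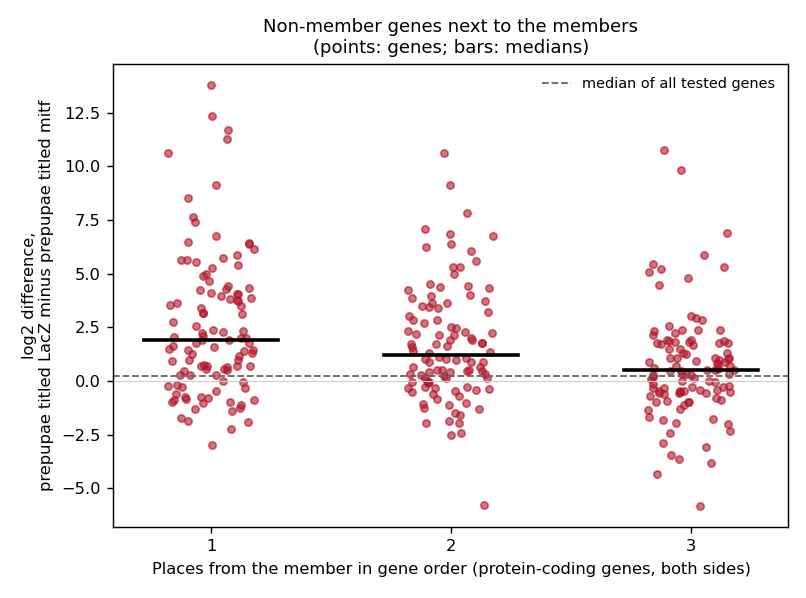
Log2 differences between prepupae titled LacZ and prepupae titled mitf for tested genes 1, 2 and 3 places from a member in gene order, members left out. Points are genes, bars are medians of 1.89, 1.20 and 0.49, and the dashed line is the median of all tested genes, 0.22.

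At 37 members an adjacent gene called higher had a level per kilobase above that of the member itself. The share of all genes with such a neighbour was not worked out. SmydA-1 lies between Usp20-33, 122 bases upstream, and Mdr50, 899 bases downstream, all on the plus strand of 2R. Mdr50, which encodes an ABC transporter of the multidrug resistance family, had 57274, 65555 and 55808 in prepupae titled LacZ, against 8.223, 10.19 and 13.35 in the titled mitf group and 49.9, 36.19 and 20.22 in larvae. Usp20-33, a ubiquitin-specific protease gene, had 10457, 10365 and 10597 in prepupae titled LacZ, against 254.9, 282.8 and 269.6 in prepupae titled mitf. Per kilobase in prepupae titled LacZ the levels were 13991 for Mdr50, 3060 for Usp20-33 and 495.7 for SmydA-1 between them. Of 8 ABC transporter genes tested on a list of 11, 6 rose, Mdr50 among them, and 1 fell between the prepupa groups. Of all genes tested 41.1% were higher and 31.6% lower.

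CG6465 lies 485 bases downstream of Phyhd1 on the same strand of 3R. Phyhd1 had 43670, 48979 and 44121 in prepupae titled LacZ, against 7.309, 19.2 and 14.62 in those titled mitf and 487, 544.1 and 434.3 in larvae. Its order of groups, highest in prepupae titled LacZ and lowest in prepupae titled mitf, was that of CG6465, at 39133 per kilobase beside 601 for CG6465 in prepupae titled LacZ. CG15202 lies between CG15199 and CG15201, where the same order recurred. CG15199 had 60103, 69682 and 64161 in prepupae titled LacZ, against 3.658, 7.78 and 1.231 in prepupae titled mitf, with 2011, 1875 and 1868 in larvae. ItgaPS4 lies 262 bases downstream of scb, the gene of a further integrin alpha chain, which had 30993, 26352 and 26776 in prepupae titled LacZ, against 58.73, 70.67 and 102.2 in the titled mitf group and 205.9, 370.9 and 592.4 in larvae.

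The gene upstream lay on the same strand at 40 members. At 21 of these it was called higher, 3 of these upstream genes being members themselves. The same counts were not made for other genes. In 19 of the 21 cases the gap was at most 1000 bases or the genes overlapped, and in 12 of the 19 the upstream gene had the higher level per kilobase. Besides SmydA-1, CG6465 and ItgaPS4, these included CG32650, 98 bases from Coq8, and APC7, 133 bases from Pat1. The cases also ran the other way: fs(1)Ya, 127 bases from fs(1)Yb, had 394.9 per kilobase, beside 119.7 for fs(1)Yb, and salt had 1214, beside 10.12 for CG2187. In 5 places, 2 members lay within 10 kilobases of each other: fs(1)Ya and vilya, deltaTry and iotaTry, CG1143 and CG1246, CG13639 and CG13640, and Orcokinin and fzr2. Apart from Orcokinin and fzr2 the genes of each pair were on the same strand. The part of transcripts that run on from a neighbour in the levels of the members was not tested, and the promoters of the members were not analysed here.

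Overlap with another gene makes some levels uncertain. In all, 23 members shared bases with another annotated gene, 14 shared exonic bases, and 2 shared exonic bases on the same strand. CG6424 shared 5765 of its 6244 exonic bases with CG46315 on the same strand, and CG46315 had 316.5, 603.6 and 311.5 in prepupae titled LacZ, against 275.1, 247.8 and 272.8 in prepupae titled mitf. CG14778 shared 125 exonic bases with CG14777, whose mean was 10047 in prepupae titled LacZ, 113.1 in prepupae titled mitf and 211.7 in larvae. The single exon of fzr2 lies wholly within an intron of Stoml2 on the same strand. Stoml2 had 14769, 15595 and 16252 in prepupae titled LacZ, against 841.6, 807.5 and 815.1 in prepupae titled mitf. Likewise CG9394 lies within an intron of ktub, which had 87.02, 69.87 and 97.74 in prepupae titled LacZ, against 0 in every other library. CG9394 itself had 2309, 928.9 and 2523 in prepupae titled LacZ. Per kilobase in those prepupae the levels were 830.5 for CG9394 and 33.64 for its host ktub, and 647.8 for fzr2 and 11476 for its host Stoml2. The part of intron reads of Stoml2 in the level of fzr2 was not tested. CG11413 shared 448 of its 602 exonic bases with CG4622 on the opposite strand, and CG34112 shared 633 of its 1233 with asRNA:CR46139. The libraries were stranded, but how strand was used in the assignment of reads is not given in the sources used here.

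Some markers of a further tissue were also higher in prepupae titled LacZ, and others were not. Of 20 markers of the Malpighian tubule, the insect kidney, 16 were in the files. Between prepupae titled LacZ and prepupae titled mitf 10 rose and 1 fell, with a median log2 difference of 1.76. Over all genes tested 41.1% were higher and 31.6% lower, with a median of 0.22. The summed level of the 16 markers was 47034 to 49865 in prepupae titled LacZ, 5252 to 5800 in prepupae titled mitf and 4672 to 5709 in larvae. The sum was led by the potassium channel gene Irk3, with a mean of 23696 in prepupae titled LacZ, against 0.677 in prepupae titled mitf. The marker Prip fell, and ct, Ncc69 and Irk1 were among those not called. Alp4 was higher in larvae, with a mean of 2508, than in prepupae titled LacZ, with 1287. Several tubule markers were near 0 in both prepupa groups. In prepupae titled LacZ the means were 4.604 for the zinc transporter gene ZnT35C, 3.372 for the organic anion transporter gene Oatp58Dc, 8.737 for the neuropeptide receptor gene CapaR and 6.311 for the receptor gene Lkr. In the titled mitf group they were 4.661 for ZnT35C, 0.8615 for Oatp58Dc, 0 for CapaR and 0.4249 for Lkr. CapaR and Lkr were nonetheless called higher in prepupae titled LacZ, as was Smvt, with means of 2.458 and 0. These genes are among the 10 that rose, and their rises rest on few reads. ZnT35C and Oatp58Dc were not called. None of the 64 members was on this list, and SecCl, which is on it, met both thresholds and was left out by symbol. The part of tubule tissue in the levels of the members was not tested. Between the prepupa groups, 1 of 8 hemocyte markers rose and 3 fell, 4 of 9 markers of epidermis and imaginal discs rose and 2 fell, and 1 of 5 tracheal markers fell. Of 4 ring gland markers 2 rose and 1 fell, of 4 photoreceptor markers 2 rose and 2 fell, and the 1 hindgut marker tested was not called.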

How the data were processed

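Fat body mRNA was sequenced in 9 libraries, 3 per group, each from 5 animals that spent 21 h at 21 °C as eggs and then grew at 25 °C, per the labels. The submitters' processing notes name bcl2fastq, Salmon 1.5.2, DESeq2 and the build BDGP6. The deposited values are a normalised signal per gene and library, called normalised read counts here, and not the raw counts the design had allowed for. Their median ratio to the geometric mean over genes was 0.9926 in all libraries, and 66.4% to 76.2% of low values were whole multiples (up to 10, tolerance 0.05) of 1 read. Depth was estimated from that step.

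The members, gene lists and tests were chosen with earlier results of these data known. A single limma 3.58.1 fit (R 4.3.3) held all 9 libraries, on log2 values after a pseudocount of 1 and with a trend of variance on mean. It covered the 10139 genes that reached 1 in 3 or more libraries. Tests were two-sided, p-values were adjusted by Benjamini-Hochberg over these genes, and calls were made at an adjusted p under 0.05. The fit was tested on simulated data with a common level per gene in all groups and changes planted above a minimum level. That test does not cover genes near 0 in some groups and high in another, as the members are. Levels per kilobase divide by the longest transcript in the Ensembl annotation of BDGP6, which held 10189 of the genes. Neighbours are protein-coding genes in order of start. Values of every library are given for the members with a symbol, the 5 CG-numbered members highest per kilobase, and each member called between prepupae titled mitf and larvae. Neighbouring and family genes were picked with their values in view. Alternatives covered scaling, pseudocount, filter, trend, replicate number as a block and each library left out. Promoter sequences were not analysed here.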

Additional observations from a re-analysis of the deposited data

Results flagged for a closer look

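In 6 members the groups moved in opposite directions relative to larvae: every library titled LacZ was above every larva, and every library titled mitf was below every larva. The rise in prepupae titled LacZ is fixed by the rule and the difference was not tested. For prepupae titled mitf minus larvae, the log2(value + 1) difference was -3.82 for CG6465, -3.10 for CG15202, -1.56 for Corp, -1.39 for CG11413, -1.16 for CG32650 and -1.08 for fzr2. Of these, fzr2 was not called (adjusted p = 0.0632, limma), and CG32650 lost its call in some settings. All 6 were under 20 in both low groups. The groups did not overlap downward for 33.9% of all genes tested between prepupae titled mitf and larvae, a share not worked out for genes under 20.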

How the results depend on the processing

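The number of members followed the thresholds: 24 genes met 600 and 10, and 149 met 150 and 40, in place of the 64 at 300 and 20. It was 82 with libraries scaled to equal totals, 61 with trimmed mean scaling, and 64 to 70 with 1 library left out. Between prepupae titled mitf and larvae, the 14 members called higher became 9 with a pseudocount of 5, 7 with only the 2 groups compared in the fit (42 members tested), and 9 to 18 with 1 library left out (9 without replicate 3 of the prepupae titled mitf or replicate 3 of the prepupae titled LacZ). The 9 called lower became 4 with only the 2 groups compared and 5 to 10 with 1 library left out (5 without replicate 2 of the prepupae titled mitf). Of the 23 called members 11 kept their call under all 17 alternatives and none changed sign. The 23 include iotaTry and CG6424, which entered the fit only through the prepupae titled LacZ. The cause of the changes was not tested. Scaling to equal totals moved the median of all genes between prepupae titled LacZ and prepupae titled mitf to 0.63, against 0.22 as deposited, and the calls to 4950 higher and 2335 lower, against 4166 and 3200 as deposited. Against larvae it moved the median to 0.94, against 0.50 as deposited, and the calls to 5512 higher and 2469 lower, against 4699 and 3260. Calls over all genes stayed within 1.5 times under every alternative run: with 1 library left out they were 6363 to 6938 between prepupae titled mitf and larvae, 6609 to 7411 between the prepupa groups and 7342 to 7915 between prepupae titled LacZ and larvae.

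Replicate numbers did not pair the samples: same-numbered libraries deviated together with correlations of -0.065 to 0.089. With replicate number as a block, 13 members were called higher and 7 lower, and calls over all genes were 6662, 7300 and 7907 in the same order. At a value of 1 read near 1, a difference between the low groups rests on few reads, and members listed at 0 can not be ranked.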
